A study of Mus musculus with 24 samples.

Results

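Gene expression after transverse aortic constriction (TAC) was compared with sham surgery in mice kept in normoxia, 12 of the 24 mice of the series. The 12 libraries were chosen by their labels, 6 from normoxia TAC mice and 6 from normoxia sham mice. All animals were wild-type C57/Bl6J mice and were killed on day 3. For TAC a suture was tied over a blunt 25-gauge needle placed on the aortic arch between the innominate and the left common carotid artery, so that the left ventricle pumps against a narrowed outlet. RNA came from the apex of the heart, 100 ng per library, and was made into libraries with a kit for low RNA input. The labels give no age, sex, harvest time, batch or pressure gradient across the suture. Each library is 1 mouse, and a value below belongs to whole apex tissue, in which fewer cells of a type and less RNA per cell cannot be told apart.

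Pressure overload stretches cardiac myocytes, which answer with natriuretic peptide genes, fetal forms of contractile genes and targets of the phosphatase calcineurin. Fibroblasts then lay down matrix, endothelium and macrophages release chemokines, and blood monocytes and neutrophils enter the tissue. The adult myocyte draws most of its energy from fatty acids, and genes of that pathway and of repolarizing ion channels are known to decline in loaded hearts.

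Total counts per library ran from 10906605 to 13432127 in TAC mice and from 11900499 to 15058159 in sham mice. Of 40840 genes, 14361 held enough counts to be tested. Levels are CPM, the counts of a gene as a share of its library's total, scaled by the trimmed mean of M values (TMM), and each change is the log2 of TAC over sham with its standard error from the quasi-likelihood test of edgeR. Genes with a p under 0.05 after Benjamini-Hochberg adjustment over all those tested are the called ones. Where a count of calls or a call is given without the filter, genes with few counts were tested too. A gene low in sham mice can pass the filter through the TAC mice alone, and a gene low in TAC mice through the sham mice alone. Where many members of a list did not pass, the share called among those tested therefore supports nothing. The tissue matched its label as heart, since the cardiac myosin gene Myh6 was at 9863 to 16190 CPM in TAC mice and 22333 to 26417 CPM in sham mice. The atrial markers Myl7, Sln and Bmp10 were at or near 0 in every mouse (at most 0.319 CPM). The skeletal muscle myosins Myh1 and Myh4 and the adipocyte marker Plin1 were at or near 0 too. Other members of those lists were not. Ckm, on the skeletal muscle list, was at 1847 to 3492 CPM in TAC mice and 3321 to 3842 CPM in sham mice. Fabp4, on the adipocyte list, was at 149 to 713 CPM in TAC mice and 450 to 565 CPM in sham mice. Globin transcripts stood apart in TAC 3, where Hbb-bs was at 2281 CPM against 344 to 693 CPM in sham mice. Mitochondrial rRNA made up 3.975 to 5.72% of the counts in TAC mice and 2.933 to 3.713% in sham mice, with no overlap. Its part in the results was not tested.

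At day 3, 2724 genes were called, 19% of those tested. Higher in TAC were 1688 genes (11.8%) and lower were 1036 (7.21%), and the median change of all tested genes was 0.00353. Every count of called list members from this fit is to be read beside these shares of all genes. Other fits have other shares, and their list counts are to be read beside those. Without the filter 1265 genes were higher and 769 lower of 27092 tested. DESeq2 called 2314 higher and 1459 lower of 14361, and limma 1466 and 1048. Without sham 2 the fit called 941 higher and 496 lower of 14459. Large changes between the group means were mostly rises, and a single very high mouse can raise such a mean. At least 2-fold changes were called for 653 genes higher and 203 lower, together 5.96% of the genes tested, and at least 4-fold changes for 184 higher and 4 lower. Counted per mouse, TAC 4 and TAC 5 had more genes at least 2-fold below the sham mean than above it. The other TAC mice had more above it. With 1 sham mouse left out, whichever it was, 1437 to 1729 genes were called, and without TAC 1 the count was 3856. All 6 TAC mice lay above every sham mouse in 708 genes (4.93%) and below every sham mouse in 589 (4.10%), 9.03% of the genes tested between them.

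**Figure D1:**
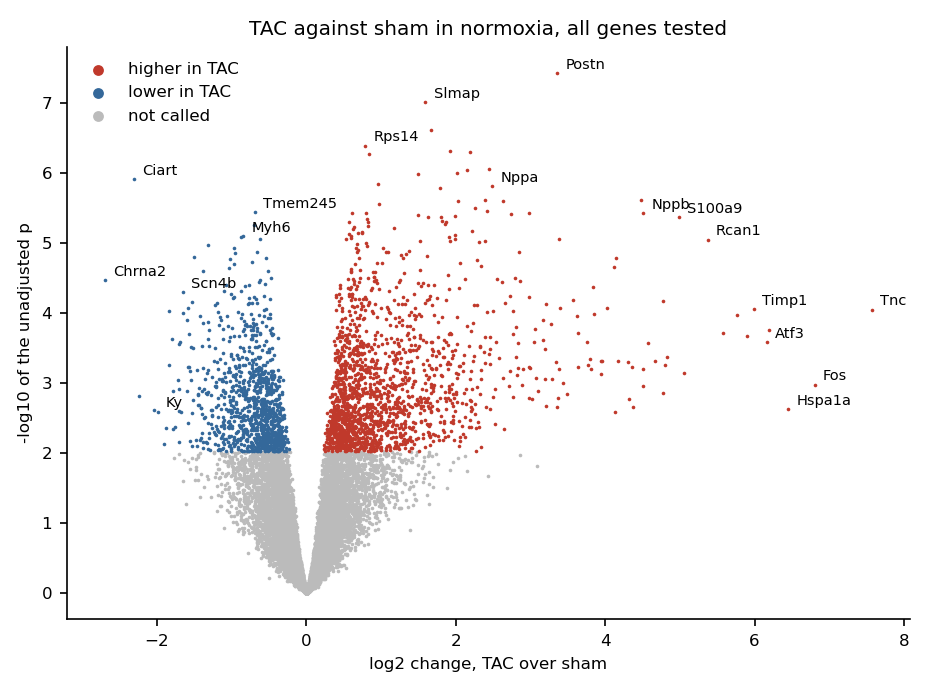
Each point is 1 of the 14361 genes tested, with the log2 change of TAC over sham on the horizontal axis and minus log10 of the unadjusted p on the vertical axis. Called genes are red where higher and blue where lower in TAC; the rises reach a log2 change of 7.57 for Tnc, and Postn has the smallest p.

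The TAC mice differed from each other more than the sham mice did. The median SD of log2 CPM was 0.396 among TAC mice and 0.165 among sham mice, and the SD was the larger one in TAC for 13272 genes (92.4%). The root mean square deviation of a mouse from the other mice of its own group averaged 0.603 ± 0.141 log2 units in TAC mice and 0.274 ± 0.0204 in sham mice (SD, n = 6 each). The difference of 0.329 had a two-sided permutation p of 0.00216 over all 924 assignments of these distances, the smallest this design allows. The distances were not computed anew for each assignment, and those of a group depend on each other, so this p is approximate.

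Measured from the sham mean, TAC 2 (1.05 log2 units) and TAC 4 (1.03) were farthest away. TAC 3 stood at 0.718, TAC 5 at 0.61, TAC 6 at 0.477 and TAC 1 at 0.376, and the sham mice at 0.254 to 0.301. TAC 2 had 1826 genes at least 2-fold above the sham mean and 1750 at least 2-fold below it, TAC 4 had 1456 and 1758, and TAC 1 had 175 and 75. Sham mice had 16 to 47 above and 30 to 105 below. TAC 1 was the TAC mouse nearest to the sham mice. Of the genes called higher, 673 had all 6 TAC mice above the sham range and 655 had 5 of 6. In 353 of those 655 the mouse left within the sham range was TAC 1. Of the genes called lower, 523 had all 6 below and 380 had 5 of 6, and TAC 1 was the mouse within the range in 201 of the 380. The first principal component of the 1000 genes that varied most held 70.2% of their variance and the second 11.5%. On the second, TAC 4 (25) and TAC 5 (19.8) lay at one end and TAC 2 (-20.3) and TAC 3 (-14.8) at the other.

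**Figure D2:**
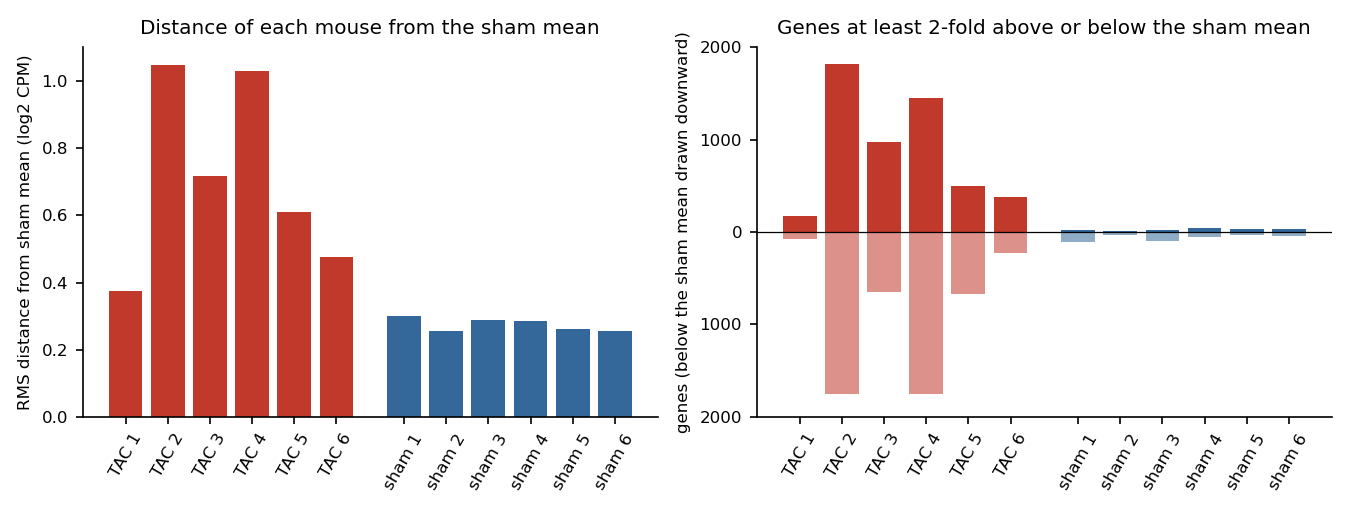
The left panel gives, for each of the 6 TAC mice (red) and 6 sham mice (blue), the root mean square distance of its log2 CPM from the mean of the sham mice (for a sham mouse, of the other 5). The right panel gives the genes averaging at least 1 CPM that lay at least 2-fold above (upward) or below (downward) that mean; TAC 2 and TAC 4 have the most and TAC 1 the fewest of the TAC mice.

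Few genes moved at least 2-fold in every animal. Of 13964 genes averaging at least 1 CPM, 29 were at least 2-fold above the sham mean in all 6 TAC mice and 3 at least 2-fold below. Postn, a matricellular protein of activated fibroblasts, had the smallest p of all genes, with 45.6, 169, 247, 232, 119.6 and 145 CPM in TAC 1 to TAC 6, against 14.3 to 17.3 CPM in sham mice (log2 change 3.36 ± 0.31, adjusted p = 0.000533). Even TAC 1 was above every sham mouse, and the other 5 were higher still. Slmap, which encodes a membrane protein of the sarcolemma, had 465, 513, 652, 891, 492 and 654 CPM in TAC mice, against 155 to 233 CPM in sham mice (1.59 ± 0.16, adjusted p = 0.000694). Rcan1, which encodes an inhibitor and target of calcineurin, was at 92.9, 2129, 754, 2475, 387 and 285 CPM in TAC mice, against 15.1 to 47.3 CPM in sham mice (5.37 ± 0.77, adjusted p = 0.00213). The groups did not overlap in these 3 genes, and for Rcan1 the TAC mice spanned a far wider range than for Slmap. The 3 genes below were Kif28, Ciart and Chrna2. Ciart, a repressor of the clock, had 6.28, 4.998, 7.09, 4.07, 8.21 and 7.28 CPM in TAC mice and 15.4 to 50.1 CPM in sham mice. Chrna2, a nicotinic receptor subunit, had 0.897, 0, 0.818, 0.642, 0.0989 and 0.809 CPM in TAC mice and 2.48 to 4.49 CPM in sham mice (-2.7 ± 0.45, adjusted p = 0.00397). At these TAC levels Chrna2 passed the filter through the sham mice, and without the filter its adjusted p was 0.00221.

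**Figure D3:**
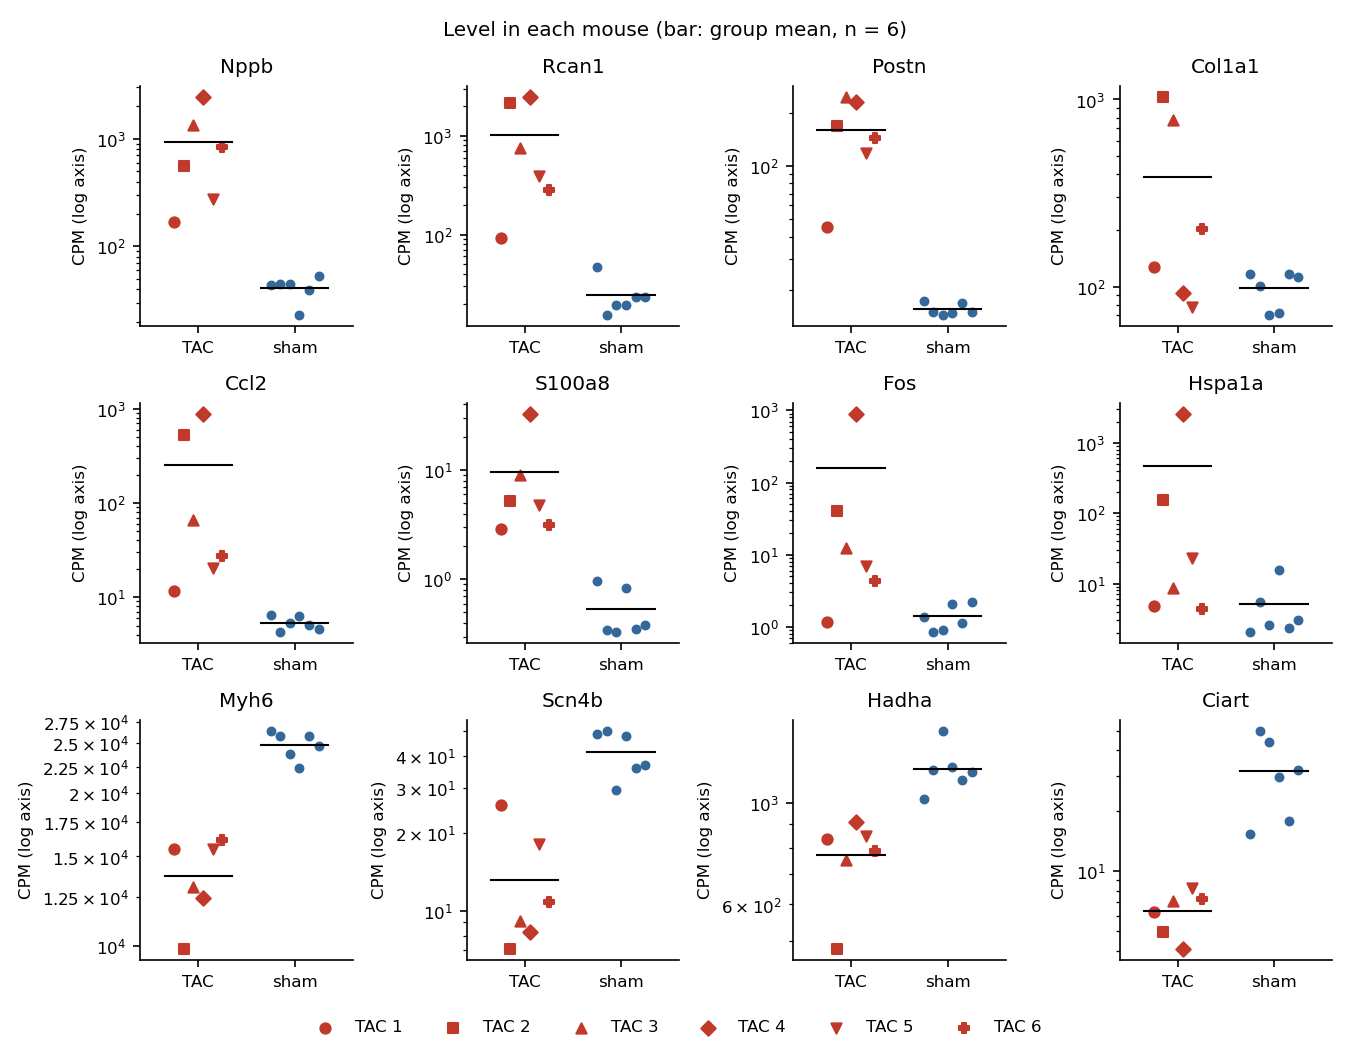
CPM of 12 genes in each mouse on log axes, with TAC mice in red (1 symbol per mouse, as in the legend), sham mice in blue and a bar at the mean of the 6 mice of a group. TAC 1 is the TAC mouse nearest to the sham mice for Nppb, Rcan1 and Ccl2; Col1a1 is raised in TAC 2 and TAC 3 far more than in TAC 4, which is highest for Fos and Hspa1a.

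Genes of the response to load rose nearly throughout. Of 17 tested members of that list 15 were called higher and none lower, with a median change of 1.99, and in 13 all 6 TAC mice lay above every sham mouse. With any 1 mouse left out, 14 or 15 rose. Nppb, which encodes the natriuretic peptide BNP, had 169.6, 561, 1344, 2444, 274 and 845 CPM in TAC mice, against 22.8 to 53.2 CPM in sham mice (4.5 ± 0.59, adjusted p = 0.00184). Nppa, which encodes the peptide ANP, had 411, 1986, 1817, 881, 922 and 1161 CPM in TAC mice, against 140.2 to 266 CPM in sham mice (2.49 ± 0.32, adjusted p = 0.00155). The order of the mice differed between the peptide genes, with TAC 4 highest for Nppb and TAC 2 highest for Nppa. Ankrd1, a stretch-responsive nuclear and sarcomeric protein, had 1564, 13680, 7587, 11520, 1286 and 2915 CPM in TAC mice, against 725 to 1209 CPM in sham mice (2.81 ± 0.54, adjusted p = 0.00695). Its relative Ankrd2 was near 0 in sham mice (0.323 to 0.736 CPM) and reached 121 CPM in TAC 2 (5.9 ± 1.16, adjusted p = 0.00791), with a change of 4.55 without TAC 2. At these sham levels Ankrd2 passed the filter only through the TAC mice, and without the filter its adjusted p was 0.0268. Acta1, skeletal alpha-actin, rose by 1.83 ± 0.39 (adjusted p = 0.00927, or 0.0647 by limma), while the cardiac form Actc1 was at 0.083 ± 0.20 (adjusted p = 0.802), not called, and at -0.036 without TAC 6. Meox1, a homeobox factor of activated fibroblasts, rose by 1.99 ± 0.29 (adjusted p = 0.00213). The members not called were Gata4, a cardiac transcription factor (called without TAC 6), and Myh7b, a slow myosin (called without TAC 1 and by limma). Of the atrial markers tested Nppa and Myl4, an atrial light chain, were higher, Myl4 with 5.74 to 11.99 CPM in TAC mice, against 4.12 to 5.5 CPM in sham mice (0.69 ± 0.18, adjusted p = 0.0209).

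The promoter of Nppb is shown because the gene was raised in every TAC mouse. The 250 bases before its start at chr4:147985650-147985899 (plus strand, RefSeq, build GRCm38.p6) hold a TATA box (letters TATAAA, searched on both strands) and an M-CAT element (letters CATTCC, both strands, here read on the other strand), both in capitals.
Nppb: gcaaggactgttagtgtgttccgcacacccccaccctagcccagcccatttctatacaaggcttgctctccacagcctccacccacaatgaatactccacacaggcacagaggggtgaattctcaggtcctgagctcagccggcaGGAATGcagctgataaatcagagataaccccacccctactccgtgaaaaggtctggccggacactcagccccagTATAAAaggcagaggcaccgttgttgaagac
The TATA letters occur in 8.61% and the M-CAT letters in 13.2% of the windows of this length of 11154 tested genes with a RefSeq promoter. In the genes called higher these shares were 11.3% and 13.6%, and in the genes called lower 6.61% and 14.1%, of 1309 and 787 promoters. The AP-1 letters TGANTCA, absent from the window of Nppb, were in 8.48% of the promoters of genes called higher and 5.97% of those called lower, against 5.7% of all tested.

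Of 20 contractile genes of the adult myocyte Casq2 and Slc8a1 were called higher and Myh6 lower, beside 11.8% higher and 7.21% lower of all genes, and the median change was -0.069. Myh6, the adult myosin heavy chain, had 15530, 9863, 13060, 12430, 15530 and 16190 CPM in TAC mice, against 22333 to 26417 CPM in sham mice (-0.85 ± 0.12, adjusted p = 0.00213). Myh7, the fetal and slow form, had 461, 1772, 1698, 996, 1497 and 1029 CPM in TAC mice, against 316 to 422 CPM in sham mice (1.82 ± 0.26, adjusted p = 0.00191). The groups did not overlap for either myosin. Slc8a1, the sodium-calcium exchanger, rose by 0.68 ± 0.15 (adjusted p = 0.012). The calcium pump gene Atp2a2 was at -0.27 ± 0.11 (adjusted p = 0.0855) and Ttn, the giant sarcomere spring, at -0.20 ± 0.094 (adjusted p = 0.133), neither called. Casq2, the calcium store protein, was called at 0.49 ± 0.15 (adjusted p = 0.0419), a call lost in 9 of the 12 fits that leave out 1 mouse (without TAC 1, TAC 4, TAC 6 or any sham mouse, adjusted p up to 0.0926) and without the filter (adjusted p = 0.0555). Without TAC 4 the list held 4 falls, and Atp2a2 was called (adjusted p = 0.0299).

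The hairpin gene Mir208b, which lies within the span of Myh7 in the RefSeq annotation, moved against its host. It had 2.69, 0.873, 1.36, 0.535, 0.692 and 2.72 CPM in TAC mice, against 3.68 to 6.07 CPM in sham mice (-1.69 ± 0.35, adjusted p = 0.00864), and all 6 TAC mice were below every sham mouse. These counts are reads over the hairpin locus and not the mature miRNA, and reads shared with the overlapping host cannot be assigned with certainty. The mature form on the 3′ arm is printed with its seed, bases 2 to 8, in capitals (RefSeq, chr14:54975710-54975731, minus strand).
mmu-miR-208b-3p: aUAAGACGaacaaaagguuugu

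Ion channels of the myocyte fell in part. Of 22 tested, 7 fell and none rose (median -0.646), against 7.21% of all genes lower, and in 5 all TAC mice were below every sham mouse. Scn4b, a sodium channel beta subunit, had 25.7, 7.06, 9.09, 8.24, 18.1 and 10.8 CPM in TAC mice, against 29.4 to 49.9 CPM in sham mice (-1.65 ± 0.29, adjusted p = 0.00453). Kcnj2, the inward rectifier that sets the resting potential, had 12.9, 6.27, 8.55, 9.203, 11.9 and 9.26 CPM in TAC mice, against 15.03 to 22.4 CPM in sham mice (-1.03 ± 0.17, adjusted p = 0.00334). Kcnh2, the channel of the rapid delayed rectifier current, fell by 1.32 ± 0.25 (adjusted p = 0.00636). For Kcnh2 TAC 6 was within the sham range, while for Scn4b and Kcnj2 all 6 TAC mice were below it. The list held 12 falls without TAC 1 and 5 without TAC 3, TAC 4, sham 3, sham 4 or sham 6. A fit of all 24 libraries gave 11. Beyond the list, Ky, a muscle-specific protein, was among the largest falls, with 13.9, 1.51, 3.18, 0.214, 2.67 and 8.38 CPM in TAC mice, against 16.4 to 23.4 CPM in sham mice (-1.99 ± 0.54, adjusted p = 0.0244). The call of Ky was lost without sham 5 (adjusted p = 0.0505) and without the filter (adjusted p = 0.0779), and its change was -2.61 without TAC 1. Atp1b2, a sodium pump subunit, fell by 0.97 ± 0.15 (adjusted p = 0.00241) and Wnk2, a kinase, by 1.32 ± 0.20 (adjusted p = 0.00231), in all 6 mice below the sham range.

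Matrix genes rose in part. Of 27 collagens and matrix glycoproteins 14 were called higher and none lower (median 1.16), beside 11.8% higher and 7.21% lower of all genes. Of 31 genes of cross-linking and proteolysis 25 passed the filter, and of these 14 were higher and 1 lower (median 1.04). Without the filter 16 of all 31 were higher. Tnc, a matricellular protein of early repair, was near 0 in sham mice (0.164 to 0.8403 CPM) and had 0.628, 345, 66.2, 192, 5.44 and 14.6 CPM in TAC mice (7.57 ± 1.36, adjusted p = 0.00541). TAC 1 was within the sham range, and TAC 2, TAC 4 and TAC 3 were far above it, and the change was 6.7 without TAC 2. At these sham levels Tnc passed the filter mainly through the TAC mice, and without the filter its adjusted p was 0.0192. Thbs1, which activates latent TGF-beta, had 7.98, 444, 98.9, 883, 37.3 and 29.2 CPM in TAC mice, against 3.503 to 6.302 CPM in sham mice (5.76 ± 1.06, adjusted p = 0.00581), with a change of 4.74 without TAC 4. Thbs4 rose by 2.63 ± 0.35 (adjusted p = 0.00184) and Col8a1 by 2.26 ± 0.31 (adjusted p = 0.00184), with no overlap between groups. The fibrillar collagens were carried by fewer mice. Col1a1 had 128, 1032, 778, 91.9, 77.9 and 204 CPM in TAC mice, against 69.99 to 116 CPM in sham mice (1.97 ± 0.61, adjusted p = 0.0404), and Col3a1 had 179, 876, 1175, 125, 56.9 and 281 CPM in TAC mice, against 71.3 to 147 CPM in sham mice (2.06 ± 0.62, adjusted p = 0.0379). TAC 4 and TAC 5 were within the sham range for Col1a1, although both were above it for Postn. Each of these 2 collagen calls was lost in 8 of the 12 fits that leave out 1 mouse (without TAC 2, TAC 3 or any sham mouse), with adjusted p up to 0.104 for Col1a1 and 0.0868 for Col3a1. Both were lost too without the filter (adjusted p = 0.113 for Col1a1 and 0.107 for Col3a1) and by limma (adjusted p = 0.107 and 0.116, in the same order). The collagen list held 10 to 17 rises in fits that leave out 1 mouse and 9 by limma, and 13 to 17 were found for cross-linking and proteolysis.

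Among enzymes and inhibitors of the matrix, Timp1, which blocks metalloproteinases, had 3.05, 226, 99.5, 237, 12.7 and 8.97 CPM in TAC mice, against 0.654 to 2.52 CPM in sham mice (5.99 ± 1.07, adjusted p = 0.00538). Lox, which cross-links collagen, had 5.56, 126, 92.5, 116, 21.1 and 12.7 CPM in TAC mice, against 2.83 to 6.49 CPM in sham mice (3.85 ± 0.70, adjusted p = 0.00571). The proteases Adamts4 (5.05 ± 1.15, adjusted p = 0.0132) and Adamts8 (3.39 ± 0.50, adjusted p = 0.00213) rose, Adamts8 in all 6 mice, and the change of Adamts4 was 4.36 without TAC 2. Adamts8 was at 0.0818 to 0.484 CPM in sham mice and passed the filter only through the TAC mice. Without the filter its adjusted p was 0.000925. The tissue plasminogen activator gene Plat rose by 0.74 ± 0.13 (adjusted p = 0.00501), a small change seen in all 6 mice. Of 13 hyaluronan genes only 7 passed the filter, so the share of these that rose supports nothing. Without the filter 7 of all 13 rose. Of the 7 tested 6 rose (median 0.888), among them the hyaluronan receptor Cd44 (3.16 ± 0.63, adjusted p = 0.00834) and Vcan, which encodes the hyaluronan-binding versican (2.39 ± 0.32, adjusted p = 0.00184). That count was 4 without TAC 4 or without sham 1, 2, 3, 5 or 6. Tnfaip6, a modifier of hyaluronan, rose by 2.72 ± 0.63 (adjusted p = 0.0128), and by 1.67 without TAC 4.

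Growth factor and cytokine genes rose in part. Of 24 growth factor genes 19 passed the filter, and of these 9 rose and none fell (median 0.756). There were 7 to 11 rises when 1 mouse was left out and 6 of 24 without the filter. Ccn2, connective tissue growth factor, had 5.02, 130.3, 50.01, 148, 16.3 and 20.2 CPM in TAC mice, against 2.74 to 4.66 CPM in sham mice (4.02 ± 0.72, adjusted p = 0.00523). Inhba, the activin A subunit, rose by 4.57 ± 0.92 (adjusted p = 0.00869), and by 3.81 without TAC 4. Hbegf, a ligand of the EGF receptor, rose by 3.77 ± 0.83 (adjusted p = 0.012), and by 2.71 without TAC 4. Gdf15, a stress-induced cytokine, had 0.807, 71.6, 5.001, 9.096, 1.38 and 1.47 CPM in TAC mice, against 0.164 to 1.13 CPM in sham mice (4.77 ± 1.18, adjusted p = 0.0177), and its change was 2.7 without TAC 2. The call of Gdf15 was lost without the filter (adjusted p = 0.0562). In the IL-6 family 10 of 15 genes passed the filter, and 4 of them rose (1 without sham 2). Without the filter 3 of 15 rose. The smallest p was that of Socs3, the feedback inhibitor of gp130 signalling, with 4.75, 144, 51.7, 494, 20.8 and 9.997 CPM in TAC mice, against 3.25 to 6.71 CPM in sham mice (4.66 ± 1.01, adjusted p = 0.0113). Without TAC 4 its change was 3.28.

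Immediate-early genes had the widest range of list means among the TAC mice. Of 20 tested 15 rose and none fell (median 2.26), but in only 2 were all 6 TAC mice above every sham mouse, and without sham 1 or sham 2 the count was 8. Without the filter 5 of 22 rose, and limma called 8. Fos, a subunit of AP-1, had 1.17, 40.1, 12.5, 894, 7.02 and 4.26 CPM in TAC mice, against 0.8297 to 2.22 CPM in sham mice (6.8 ± 1.62, adjusted p = 0.0158). TAC 4 was far above the next mouse and TAC 1 lay within the sham range. Without TAC 4 the change was 3.19 and the adjusted p 0.0136. The call of Fos was lost without the filter (adjusted p = 0.051) and by limma (adjusted p = 0.0662), and DESeq2 gave no adjusted p. Atf3, a stress-induced repressor, had 8.97, 151, 84.9, 1888, 61.98 and 29.8 CPM in TAC mice, against 2.83 to 8.41 CPM in sham mice (6.16 ± 1.24, adjusted p = 0.00858), and the change was 3.7 without TAC 4. For Atf3 all 6 TAC mice were above every sham mouse. Myc, a driver of growth, had 4.13, 86.2, 28.4, 311, 15.8 and 9.703 CPM in TAC mice, against 2.75 to 4.33 CPM in sham mice (4.31 ± 0.94, adjusted p = 0.0115). Maff, a small partner of bZIP factors, rose by 2.4 ± 0.49 (adjusted p = 0.00807) in all 6 mice. Without TAC 4 the change was 2.91 for Myc and 1.7 for Maff. Ptgs2, the inducible cyclooxygenase, was not on the list and was among the largest rises, with 0.986, 25.3, 7.37, 104, 4.94 and 2.35 CPM in TAC mice, against 0.191 to 0.491 CPM in sham mice (6.19 ± 1.19, adjusted p = 0.00736), and its change was 4.64 without TAC 4. At these sham levels Ptgs2 passed the filter only through the TAC mice, and without the filter its adjusted p was 0.0247. Bcr, a GTPase regulator, had 3.86, 241, 16.7, 284, 8.01 and 3.896 CPM in TAC mice, against 3.89 to 5.32 CPM in sham mice (4.32 ± 1.1, adjusted p = 0.0197), and was raised most in TAC 2 and TAC 4, with a change of 3.56 without TAC 4. The call of Bcr was lost without the filter (adjusted p = 0.0615) and by limma (adjusted p = 0.107). Arc, a neuronal immediate-early gene named for its spread, had 3.59, 36.4, 4.64, 286, 4.45 and 2.43 CPM in TAC mice, against 4.35 to 8.85 CPM in sham mice, and was not called (3.09 ± 1.11, adjusted p = 0.0665). It was called without TAC 1, TAC 5 or TAC 6 (lowest adjusted p = 0.0347), by DESeq2 (adjusted p = 0.0165) and in a fit of all 24 libraries (adjusted p = 0.0274). Without TAC 4 its change was 0.65.

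Chemokine genes rose in part. Of 27 genes of the IL-1 family and chemokines 17 passed the filter, and of these 8 rose and none fell (median 1.26). There were 6 to 10 rises with 1 mouse left out, 11 of 27 without the filter, and 14 of 23 where genes averaging at least 1 CPM were tested. Ccl2, the main monocyte attractant, had 11.7, 524, 66.7, 882, 20.5 and 27.3 CPM in TAC mice, against 4.22 to 6.46 CPM in sham mice (5.58 ± 1.09, adjusted p = 0.00777), with a change of 4.6 without TAC 4, and Ccl7 rose by 3.94 ± 0.86 (adjusted p = 0.0113). Ccl9 (2.31 ± 0.34, adjusted p = 0.00218) and Ccl6 (2.05 ± 0.35, adjusted p = 0.00422), chemokines of myeloid cells, were above the sham range in all 6 mice. The endothelial adhesion molecules Sele, Vcam1 and Icam1 rose, 3 of 7 tested. Of all 9 on that list, 3 were called higher without the filter. Sele, or E-selectin, had 1.26, 24.1, 7.46, 109, 3.66 and 5.59 CPM in TAC mice, against 0.635 to 1.86 CPM in sham mice (4.51 ± 1.01, adjusted p = 0.0126), and the change was 2.94 without TAC 4. Icam1 was called at 1.96 ± 0.55 (adjusted p = 0.0282), a call lost without sham 1, 2, 4, 5 or 6 (adjusted p up to 0.0642) and without the filter (adjusted p = 0.0838), and its change was 1.11 without TAC 4. Tlr4, a receptor for bacterial and damage signals, had 31.5, 76.7, 59.8, 120, 60.6 and 52.04 CPM in TAC mice, against 13.6 to 18.5 CPM in sham mice (2.01 ± 0.25, adjusted p = 0.00136).

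Of 22 markers of recruited monocytes and activated macrophages, 13 passed the filter on low counts. Of these 12 were called higher and none lower, with 9 higher without TAC 2, and without the filter 15 of all 22 were higher. A marker low in sham mice can pass the filter through the TAC mice alone, so the share among those that passed supports nothing. The summed level of all 22 members was 229 to 1250 CPM in TAC mice and 143 to 179 CPM in sham mice. Lyz2, lysozyme of myeloid cells, had 165, 417, 408, 529.6, 268 and 167 CPM in TAC mice, against 100.2 to 132 CPM in sham mice (1.53 ± 0.26, adjusted p = 0.00412). Lgals3, galectin-3 of phagocytes, had 5.83, 95.7, 47.2, 27.7, 14.1 and 9.703 CPM in TAC mice, against 2.19 to 4.78 CPM in sham mice (3.4 ± 0.61, adjusted p = 0.00523). Ccr2, the receptor for Ccl2, had 5.56, 111, 41.6, 44.1, 4.25 and 5.15 CPM in TAC mice, against 2.34 to 4.33 CPM in sham mice (3.29 ± 0.77, adjusted p = 0.0145). TAC 2 was the highest mouse for Lgals3 and Ccr2, and TAC 4 for Lyz2. Without TAC 2 the change was 2.75 for Lgals3 and 2.49 for Ccr2. Resident-type macrophage markers rose in 5 of 14 (median 0.435; 3 without sham 1, 2 or 3). Among them C1qa, a complement component, had 30.7, 53.1, 87.4, 26.4, 36.2 and 46.8 CPM in TAC mice, against 19.96 to 29.2 CPM in sham mice (0.98 ± 0.24, adjusted p = 0.0173), and here TAC 4 was within the sham range. The summed level of these 14 markers was 401 to 854 CPM in TAC mice and 371 to 457 CPM in sham mice.

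Of 14 neutrophil markers, which include the protease gene Mmp9 of the matrix list, 7 passed the filter, and the same limit holds for them. Of these 6 were called higher (4 without TAC 2 or TAC 3, 7 without TAC 1, 3 by limma), and without the filter 8 of all 14 were higher. The call of Mmp9 was lost without the filter (adjusted p = 0.0851) and by limma (adjusted p = 0.0613). S100a8, a subunit of calprotectin, had 2.87, 5.16, 9.002, 32.5, 4.75 and 3.16 CPM in TAC mice, against 0.327 to 0.9696 CPM in sham mice (4.12 ± 0.66, adjusted p = 0.00324). S100a9, its partner, had 1.44, 3.49, 3.73, 15.6, 3.16 and 2.35 CPM in TAC mice, against 0 to 0.255 CPM in sham mice (4.98 ± 0.69, adjusted p = 0.00184). TAC 4 was highest for both, and all 6 TAC mice were above every sham mouse. Without TAC 4 the changes were 3.19 for S100a8 and 4.19 for S100a9. The summed level of 14 members was 12.6 to 203 CPM in TAC mice and 7.77 to 12.7 CPM in sham mice, and the granule genes Ngp, Camp and Ly6g were at or near 0 in all mice. Lymphocyte markers were low in both groups, with a sum of 5.89 to 10 CPM in TAC mice and 7.1 to 10.9 CPM in sham mice. Of 5 tested 1 fell, the T-cell receptor chain gene Cd247 (-1.1 ± 0.28, adjusted p = 0.019).

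Some resident fibroblast markers were called higher and some endothelial markers lower, beside 11.8% higher and 7.21% lower of all genes. Of 12 fibroblast markers 3 rose and none fell (median 0.421). The sum over all 12 was 2750 to 4110 CPM in TAC mice and 3250 to 3670 CPM in sham mice, so the groups overlapped. Mfap5, a microfibril protein, had 61.2, 160.1, 154, 161, 130.1 and 84.5 CPM in TAC mice, against 25.5 to 40 CPM in sham mice (1.92 ± 0.22, adjusted p = 0.0011), and Lum, the proteoglycan lumican, rose by 1.18 ± 0.27 (adjusted p = 0.0126). Of 19 endothelial markers 4 fell and none rose (median -0.172), and 3 to 5 fell when 1 mouse was left out. The sum over all 19 was 1280 to 1320 CPM in TAC mice and 1540 to 1650 CPM in sham mice, with no overlap. Tie1, an endothelial receptor kinase, had 96.8, 49.5, 82.4, 71.7, 85.01 and 80.5 CPM in TAC mice, against 116 to 146 CPM in sham mice (-0.71 ± 0.14, adjusted p = 0.0061). Kdr, the VEGF receptor, fell by 0.68 ± 0.17 (adjusted p = 0.0174) and Cd300lg, of capillary endothelium, by 0.60 ± 0.14 (adjusted p = 0.0129). Rgcc was called lower at an adjusted p of 0.0498, with TAC 5 (100.8 CPM) above every sham mouse, and its call was not followed in other fits. Of 11 pericyte and smooth muscle markers Abcc9, a channel subunit of pericytes, fell by 0.67 ± 0.14 (adjusted p = 0.00791), Notch3 was also lower and Cnn1, a smooth muscle calponin, was higher, a call lost without the filter (adjusted p = 0.0636). The call of Notch3 was lost in 6 fits with 1 mouse left out (without TAC 4, TAC 6 or sham 1, 2, 4 or 6, adjusted p up to 0.0637) and by limma (adjusted p = 0.051).

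Cytoskeletal genes rose in 17 of 25 and fell in none (median 0.841). The count was 10 without sham 2 or without the filter and 20 without TAC 1 or TAC 5. Pdlim5, a Z-disc adaptor, had 599.6, 1156, 1336, 1863, 1269 and 998 CPM in TAC mice, against 435 to 565 CPM in sham mice (1.29 ± 0.20, adjusted p = 0.00272). Vim, the intermediate filament of mesenchymal cells, rose by 1.21 ± 0.24 (adjusted p = 0.00684), Tubb2b, a tubulin, by 1.94 ± 0.39 (adjusted p = 0.00786) and Tpm4, a tropomyosin of non-muscle filaments, by 1.15 ± 0.25 (adjusted p = 0.00979).

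**Figure D4:**
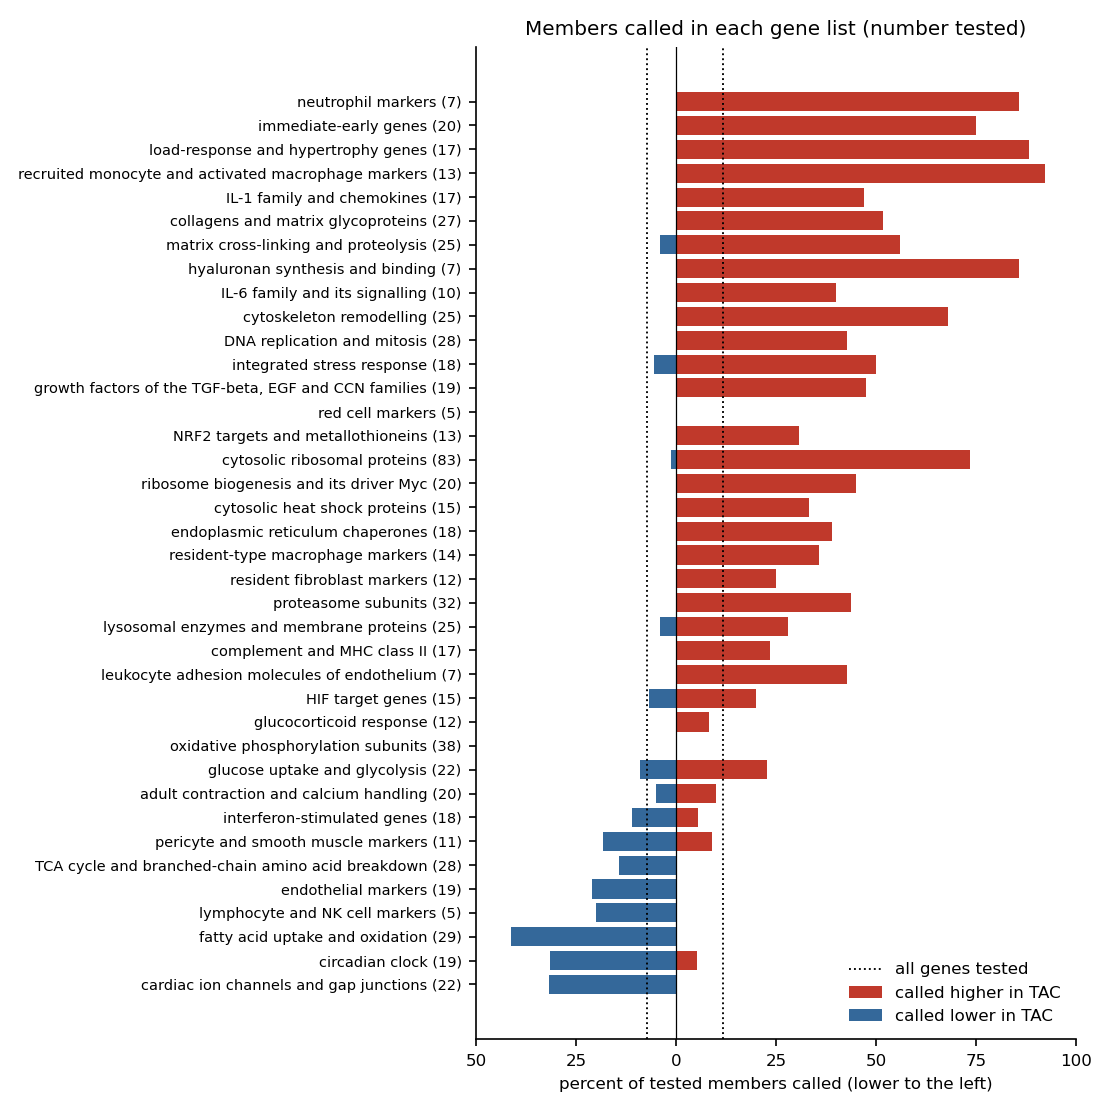
For each gene list with at least 5 tested members, the bars give the percent of tested members called higher (red, to the right) and lower (blue, to the left) in TAC, with the number tested in brackets. Dotted lines mark all genes tested, 11.8% higher and 7.21% lower. Lists run from the largest median change at the top to the most negative at the bottom. Where many members of a list did not pass the filter, its bar supports nothing.

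Genes of fatty acid use fell in part, and edgeR called no subunit of the respiratory chain. Of 29 genes of uptake and oxidation 12 were lower and none higher (median -0.311), and in 7 of the 29 all 6 TAC mice were below every sham mouse. The count was 6 without sham 3 and 15 without TAC 5. Hadha, which carries late steps of long-chain beta-oxidation, had 835, 478, 753, 908, 849.5 and 788 CPM in TAC mice, against 1019.8 to 1441 CPM in sham mice (-0.63 ± 0.14, adjusted p = 0.0123). Slc25a20, the carnitine carrier, fell by 0.57 ± 0.11 (adjusted p = 0.00586), Acaa2, the last thiolase, by 0.68 ± 0.15 (adjusted p = 0.0119) and Acot2, a thioesterase, by 0.61 ± 0.14 (adjusted p = 0.0124). TAC 2 was the lowest mouse for Hadha, Slc25a20 and Acaa2. Acsl1, which activates long-chain fatty acids, was called at -0.56 ± 0.15 (adjusted p = 0.0241), a call lost without sham 3 (adjusted p = 0.0561). The coactivator gene Ppargc1a was at -0.050 ± 0.26 (adjusted p = 0.912), not called, and at 0.15 without TAC 2. Of 38 nuclear-coded subunits of oxidative phosphorylation none was called (median 0.0299) by edgeR; 6 had an unadjusted p under 0.05, DESeq2 called 4 higher and 1 lower, limma called 1 lower, and without TAC 2 edgeR called 7 higher. Of 28 genes of the citric acid cycle and branched-chain amino acid breakdown 4 were called lower, beside 7.21% of all genes. None of these calls was left without TAC 3, TAC 6 or any sham mouse, or without the filter, and 1 was left under RLE scaling.

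Of 22 genes of glucose uptake and glycolysis 5 were called higher and 2 lower, beside 11.8% and 7.21% of all genes. No fall was called without TAC 6 or any sham mouse, and 1 without the filter. Slc16a3, the lactate exporter, had 2.15, 46.01, 15.4, 17.9, 4.55 and 3.53 CPM in TAC mice, against 1.31 to 2.803 CPM in sham mice (2.83 ± 0.64, adjusted p = 0.0125), and Pfkp, a form of phosphofructokinase, rose by 0.87 ± 0.22 (adjusted p = 0.0181). Without TAC 2 the change of Slc16a3 was 2.07. The rises numbered 2 without TAC 3 or sham 1, 2, 4, 5 or 6, 3 without the filter or by limma, and 7 without TAC 1. Of 15 genes of the hypoxia-inducible factor list, which holds the factor's own subunits, 3 rose and 1 fell, and the rises numbered 1 without TAC 4, any sham mouse or the filter. Hif1a itself rose by 1.01 ± 0.21 (adjusted p = 0.00887) in all 6 mice and Epas1 fell by 0.54 ± 0.13 (adjusted p = 0.0153). Bnip3 was highest in TAC 5 (1210 CPM) and TAC 4 (889 CPM), against 246 to 321 CPM in sham mice, and its call (adjusted p = 0.0303) was lost without TAC 4 or any sham mouse (adjusted p up to 0.0659) and without the filter (adjusted p = 0.0822).

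Clock genes fell in part. Of 19 tested 6 fell and 1 rose (median -0.436), and 4 to 7 fell when 1 mouse was left out. Ciart, with the values given above, changed by -2.31 ± 0.29 (adjusted p = 0.00145). Hlf, a clock output factor, had 11.8, 3.65, 6.91, 3.75, 8.403 and 13.97 CPM in TAC mice, against 18.02 to 35.9 CPM in sham mice (-1.65 ± 0.31, adjusted p = 0.00565). Tef, a relative of Hlf, fell by 0.99 ± 0.25 (adjusted p = 0.0169) and Nr1d1, a repressor of Arntl, by 0.77 ± 0.16 (adjusted p = 0.0092, or 0.0648 by limma), while Clock rose by 0.63 ± 0.16 (adjusted p = 0.017). Per2 was at -0.68 ± 0.27 and was not called (adjusted p = 0.0918). Sham mice differed among themselves too, with Ciart at 15.4, 50.1, 43.8, 29.6, 17.9 and 31.9 CPM in sham 1 to sham 6, so that the highest was far above the lowest. The labels give no hour of killing, so time of day and surgery cannot be told apart for this list. The promoter of Ciart (chr3:95882229-95882478, minus strand, RefSeq, GRCm38.p6) is shown for its 3 E-boxes (letters CACGTG, which read the same on both strands), in capitals.
Ciart: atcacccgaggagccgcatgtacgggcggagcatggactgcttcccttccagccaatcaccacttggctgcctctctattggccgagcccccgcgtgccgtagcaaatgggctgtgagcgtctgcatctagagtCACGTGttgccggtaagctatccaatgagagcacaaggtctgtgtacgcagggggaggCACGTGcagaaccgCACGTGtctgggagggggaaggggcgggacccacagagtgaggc
These letters occur in 9.58% of the promoters of tested genes, in 8.13% of those called lower and in 11.1% of those called higher.

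Genes of protein synthesis and turnover rose in part, by small amounts. Of 83 tested genes of cytosolic ribosomal proteins, a list added after its values were seen, 61 were higher and 1 lower (median 0.519), and in 32 all 6 TAC mice were above the sham range. Rps14 had 402, 436, 433, 438, 343 and 367 CPM in TAC mice, against 219 to 243 CPM in sham mice (0.79 ± 0.090, adjusted p = 0.0011), and Rpl26 had 96.1, 93.1, 105, 117, 83.04 and 93.2 CPM in TAC mice, against 49.9 to 62.4 CPM in sham mice (0.84 ± 0.10, adjusted p = 0.0011). The 1 lower gene was Rps4l (-0.66 ± 0.15, adjusted p = 0.0126, or 0.0515 by limma). Rpl3 and its muscle form Rpl3l, named after their values were seen, went apart, with Rpl3 called higher at 1.45 ± 0.27 (adjusted p = 0.00523) and Rpl3l at -0.38 ± 0.21 (adjusted p = 0.196), not called. Reads of ribosomal protein genes can be shared with processed pseudogenes, so single members are uncertain. The count of rises was 46 to 73 with 1 mouse left out. Ribosome biogenesis genes rose in 9 of 20 (median 0.507; 4 without sham 1 or sham 5, 3 without the filter), among them Rrp12 (1.15 ± 0.28, adjusted p = 0.0153) and Nop58 (1.48 ± 0.38, adjusted p = 0.02, or 0.0665 without the filter). Proteasome subunits rose in 14 of 32 (median 0.361; 8 without sham 6 or without the filter, 21 without TAC 1), and in 9 all 6 TAC mice were above every sham mouse. Psmb1, a subunit of the catalytic ring, had 231, 235, 266, 304, 270.4 and 251 CPM in TAC mice, against 158 to 179 CPM in sham mice (0.63 ± 0.090, adjusted p = 0.00202).

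Stress responses of folding and amino acid supply rose in part. Of 18 genes of the integrated stress response 9 rose and 1 fell (median 0.763), with 5 rises without sham 2, 4 or 5. Mthfd2, a mitochondrial folate enzyme, rose by 1.34 ± 0.27 (adjusted p = 0.00791), and Asns, which makes asparagine, by 1.46 ± 0.30 (adjusted p = 0.00901). Of 18 chaperones of the endoplasmic reticulum 7 rose (2 without sham 2, 4 without the filter), such as Sdf2l1 (1.26 ± 0.28, adjusted p = 0.0115) and Dnajc3 (0.74 ± 0.17, adjusted p = 0.0138). Of 15 cytosolic heat shock genes 5 rose (median 0.5), 1 of 16 without the filter and 9 in a fit of all 24 libraries. Hspb7, a small heat shock protein of the heart, had 4094, 7040, 6385, 9333, 6579 and 5331 CPM in TAC mice, against 2993 to 3552 CPM in sham mice (0.95 ± 0.16, adjusted p = 0.00399), and was the only 1 of these 15 called in every fit that leaves out 1 mouse. Hspa1a, an inducible HSP70, had 4.75, 154, 8.73, 2570, 23.2 and 4.34 CPM in TAC mice, against 2.02 to 15.5 CPM in sham mice (6.45 ± 1.72, adjusted p = 0.0235). TAC 4 and TAC 2 and, less so, TAC 5 were above the sham range and the other 3 were within it. The call was lost without TAC 4 or without sham 1, 2, 3, 5 or 6 (adjusted p up to 0.0547), without the filter (adjusted p = 0.0709) and by limma (adjusted p = 0.126). Its change was 2.88 without TAC 4 and 7.2 without sham 4. Its near-identical copy Hspa1b may share reads with it. The promoter of Hspa1a (chr17:34972157-34972406, minus strand, RefSeq, GRCm38.p6) is shown with the core of a heat shock element (letters GAANNTTC, which cover both strands) in capitals.
Hspa1a: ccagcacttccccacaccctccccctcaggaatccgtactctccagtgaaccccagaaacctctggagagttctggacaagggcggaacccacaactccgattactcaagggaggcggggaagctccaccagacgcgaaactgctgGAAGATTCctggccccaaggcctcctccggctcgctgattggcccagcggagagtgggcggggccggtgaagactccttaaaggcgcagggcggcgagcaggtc
These letters occur in 6.31% of the promoters of tested genes.

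Lysosomal genes rose in 7 of 25 and fell in 1 (3 rises without sham 2 or without the filter, 13 without TAC 1, 12 by DESeq2). Ctss, a protease of antigen-presenting cells, rose by 1.7 ± 0.32 (adjusted p = 0.00581), Lamp2, a membrane protein, by 0.73 ± 0.15 (adjusted p = 0.00853) and Npc1, which exports cholesterol, fell by 0.97 ± 0.16 (adjusted p = 0.00305). Of 13 genes of the antioxidant factor NRF2 and metallothioneins 4 rose, with Hmox1, heme oxygenase, at 4.66, 82.7, 65.2, 133, 46.8 and 7.87 CPM in TAC mice, against 4.12 to 7.41 CPM in sham mice (3.2 ± 0.66, adjusted p = 0.00944). Without TAC 1 or by DESeq2 the count was 7. Of 17 complement and class II genes 4 rose, beside 11.8% of all genes, and the count was 2 without TAC 3, sham 2 or sham 5. Beside 11.8% higher and 7.21% lower of all genes, interferon-stimulated genes gave 1 rise and 2 falls in 18, and glucocorticoid-response genes 1 rise in 12. The rise in that last list was Cdkn1a, which blocks the cell cycle and stands in the list of cell division too (2.57 ± 0.55, adjusted p = 0.0109), highest in TAC 4 and TAC 5 (347 and 249.7 CPM), against 17.4 to 32.8 CPM in sham mice. Without TAC 1 it held 4 rises, and without TAC 5 it held 3 falls.

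Cell division genes split the TAC mice. Of 28 tested 12 rose and none fell (median 0.791), among them Cdkn1a, an inhibitor of the cycle. However, Ccna2, a cyclin, was the 1 gene with all 6 TAC mice above every sham mouse (0.50 ± 0.13, adjusted p = 0.0186, or 0.0554 without the filter). Top2a, which untangles DNA in mitosis, had 3.77, 9.36, 13.6, 2.03, 0.395 and 6.69 CPM in TAC mice, against 0.491 to 2.33 CPM in sham mice (2.21 ± 0.60, adjusted p = 0.0243). Mki67, a marker of cycling cells, had 3.41, 6.59, 7.91, 1.39, 0.593 and 5.81 CPM in TAC mice, against 1.11 to 2.52 CPM in sham mice (1.56 ± 0.48, adjusted p = 0.0387). TAC 3, TAC 2 and TAC 6 were highest, TAC 4 was within the sham range and TAC 5 below it for both genes. The call of Top2a was lost without TAC 3 or sham 2, 3 or 4 (adjusted p up to 0.0583) and that of Mki67 in 8 of 12 such fits (without TAC 2, 3 or 6 or sham 1 to 5, adjusted p up to 0.0851). Both calls were lost too without the filter (adjusted p = 0.0674 for Top2a and 0.0672 for Mki67) and by limma. The list held 21 rises without TAC 5 and 3 without TAC 3, sham 2, sham 3 or sham 4, and 4 rises without the filter (of 33) or by limma.

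The lists were not raised in the same order in every mouse. By the mean log2 CPM of tested members minus the sham mean, TAC 1 was the lowest TAC mouse in 23 of 40 lists, while the highest was TAC 4 in 13, TAC 2 in 11 and TAC 3 in 10. TAC 6 was the highest in none. TAC 2 led the collagens (2.63 log2 units, against 2 in TAC 3, 1.2 in TAC 4 and 0.264 in TAC 5), the genes of cross-linking and proteolysis (2.23, against 1.7 in TAC 4) and the recruited monocyte markers (2.64, against 1.6 in TAC 4). TAC 4 led the immediate-early genes (3.86, against 2.6 in TAC 2 and -0.0635 in TAC 1), the cytosolic heat shock genes (2.4, against 0.962 in TAC 2) and the neutrophil markers (3.84, against 2.84 in TAC 3). Some means rest on few members, with 7 of 14 neutrophil and 13 of 22 recruited monocyte markers tested. Such members can pass the filter through the TAC mice alone, so the height of these means above the sham mice supports nothing. TAC 3 led cell division (1.54), in which TAC 4 was at 0.0645 and TAC 5 at -0.334. TAC 5 led the glucocorticoid list (0.863), followed by TAC 4 (0.765), whereas TAC 6 was at -0.532. TAC 2 was the lowest for oxidative phosphorylation (-0.43) and for adult contraction (-0.767). The mean of the endothelial markers hardly varied, between -0.295 and -0.184 in TAC mice and between -0.0471 and 0.0487 in sham mice. Single markers varied more, such as Kdr at 108 to 224 CPM and Tie1 at 49.5 to 96.8 CPM in TAC mice. TAC 4 also had the lowest TMM factor (0.809, against 0.909 to 1.02 in the other TAC mice and 1.02 to 1.06 in sham mice), and its part in these means was not tested.

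**Figure D5:**
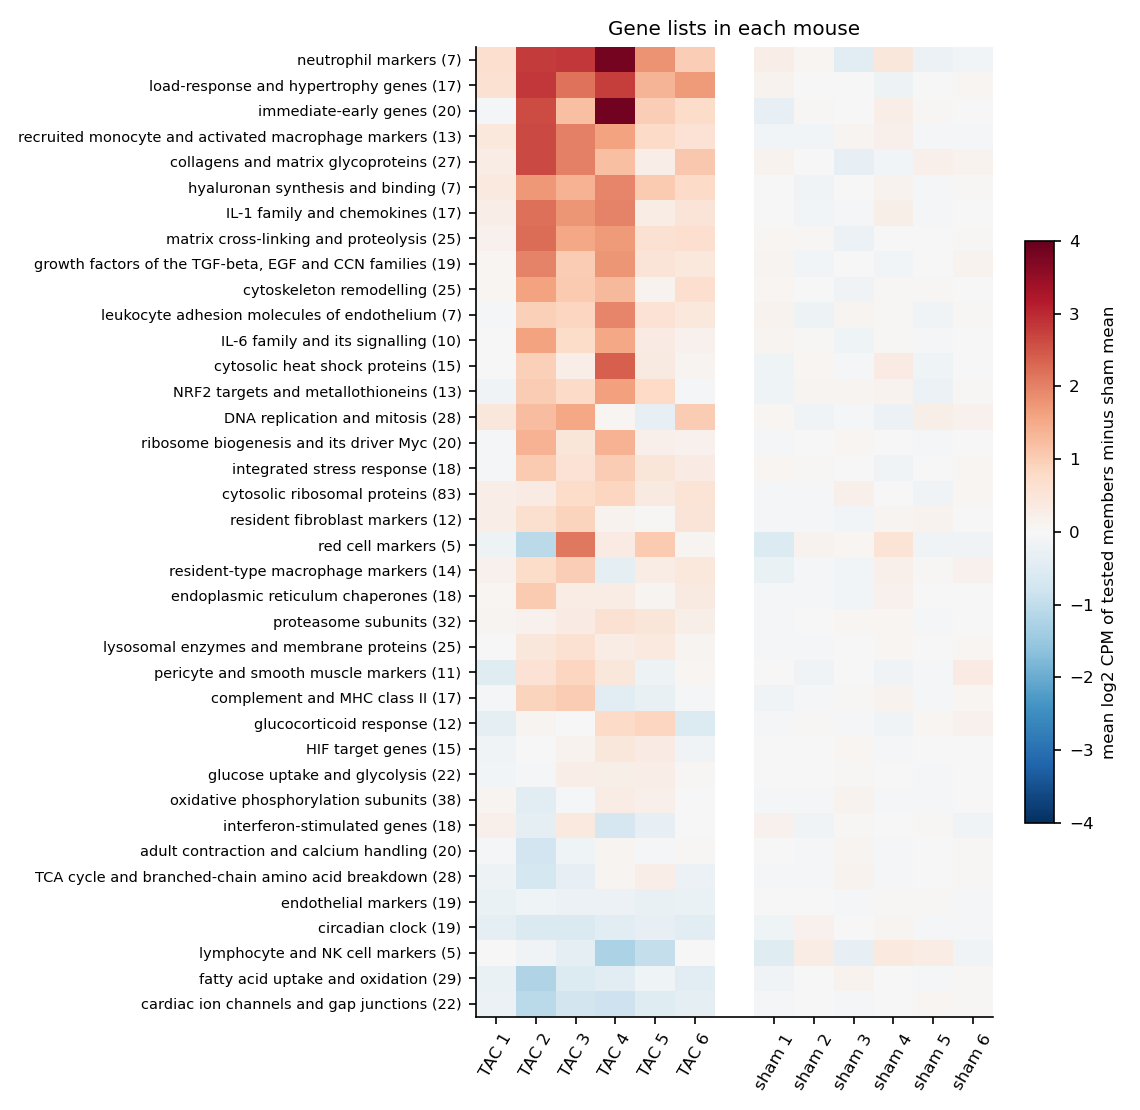
Colour gives the mean log2 CPM of the tested members of a list (number in brackets) in each mouse minus the mean of the sham mice, for lists with at least 5 members and with TAC mice at the left. TAC 2, TAC 3 and TAC 4 are the most coloured columns, with collagens and cell division stronger in TAC 2 and TAC 3 and immediate-early and heat shock genes stronger in TAC 4. Where many members of a list did not pass the filter, its distance from the sham mice supports nothing.

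Several genes did not pass the filter on low counts, and some of their values are given here, Has1, Selp and Chil3 having been picked after their values were seen. Spp1, osteopontin of activated macrophages and fibroblasts, had 0.628, 122, 78.01, 48.9, 2.47 and 1.397 CPM in TAC mice, against 0 to 0.458 CPM in sham mice. Chil3, a product of activated monocytes and neutrophils, had 0.538, 53.3, 17.6, 414, 6.33 and 1.03 CPM in TAC mice, against 0.0808 to 0.5096 CPM in sham mice. Il6, a cytokine of the acute response, had 0.0897, 8.17, 1.27, 35.7, 0.297 and 0.0735 CPM in TAC mice, against 0 to 0.245 CPM in sham mice, and Il1b had 0.179, 6.19, 1.09, 10.3, 0.395 and 0.294 CPM in TAC mice, against 0 to 0.162 CPM in sham mice. TAC 2, TAC 3 and TAC 4 were above the sham mice for all 4 genes, and TAC 1 and TAC 6 stayed close to them. Has1, a hyaluronan synthase, had 0.269, 26.7, 3.09, 47.7, 3.46 and 0.294 CPM in TAC mice, against 0 to 0.229 CPM in sham mice, and Selp, P-selectin, had 0.0897, 25.4, 7.18, 49.97, 1.58 and 0.662 CPM in TAC mice, against 0.141 to 0.319 CPM in sham mice. Each of the 6 genes failed the filter and could enter a test only through the TAC mice, so no test is given for them.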

How the data were processed

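RNA-seq libraries of the heart apex were analysed from the authors' deposited table of read counts per gene, 1 column per mouse. Per the submitters' processing notes, the tools bcl2fastq (version 2.20.0.422), STAR (version 2.7.3a), Subread (version 2.0.0) with its program featureCounts and build GRCm39 are named. Their settings, the annotation and the use of strand are not given in the sources used here, so reads of overlapping or antisense genes cannot be told apart. Nothing in the labels ties the mice to litters or batches, and p-values measure the spread between these 12 samples. The edgeR test takes 1 spread per gene for both groups. The median SD of log2 CPM was 0.396 in TAC mice and 0.165 in sham mice, so a p rests on a spread pooled over unlike groups. The limma fit weighted the groups apart.

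The 12 normoxia libraries were fitted alone with edgeR 4.0.16 (R 4.3.3): filterByExpr with a minimum count of 10 and a minimum total of 15, TMM scaling, robust quasi-likelihood F test, Benjamini-Hochberg adjustment over all 14361 genes, threshold 0.05, with 10 residual degrees of freedom. Standard errors are the log2 change divided by the square root of F. Every p adjusted in the text is from that test unless another tool is named. CPM per mouse were computed from the counts and TMM factors, with a prior count of 2 on the log2 scale. The spread between mice was compared by a permutation test over all assignments of distances that were computed once, with the true groups. The procedure was run on simulated counts in which the spread of the groups differed less than in these mice. That run therefore does not show how the test behaves at the spread of these data. No library was identical to another. Promoters and the miRNA were read from RefSeq tables of GRCm38.p6, and no coordinate was moved between builds.

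The members and lists were chosen with earlier results of these data known. Genes were named by rule: the 12 largest called rises and falls with a mean of at least 1 CPM, the 8 smallest p each way, the 8 largest SDs among TAC mice with a mean of at least 10 CPM, at most 4 members per list, those with the lowest p, and 37 panel genes, and the text takes a part of them. Predicted genes were passed over. Rps4l, Rpl3, Rpl3l, Has1, Selp and Chil3 were chosen after their values were seen. Alternatives were RLE scaling, other filters, DESeq2 1.42.0, limma 3.58.1 (voom with quality weights), the test without the robust option, all 24 libraries in 1 fit, the replicate number as a block, and each mouse left out. Total counts of 10906605 to 15058159 per library limit the precision of low genes. The 12 hypoxia libraries were not analysed here beyond that joint fit.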

Additional observations from a re-analysis of the deposited data

Results flagged for a closer look

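In 248 groups of 6 mice examined for the genes named above, 13 held 1 mouse whose gap to its nearest neighbour, divided by the range of the group on the log2 CPM scale, was above Dixon's 95% critical value, which chance passes in about 1 of 20 groups. The 13 are about the number that chance gives. In TAC mice this ratio was 0.85 for Kif28, 0.774 for Acsl1 and 0.708 for Hadha, each with TAC 2 the lowest mouse, and 0.686 for Atp1b2 with TAC 4 the lowest. TAC 2 had log2 CPM of 8.36 for Acsl1 against 9.18 in the next TAC mouse, and 8.9 against 9.56 for Hadha.

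In sham mice, sham 4 was the highest for Ccl7 (0.653) and Vcam1 (0.629) and the lowest for Hbegf (0.65), Nppb (0.635) and Slmap (0.632). Sham 6 was the highest for Cnn1 (0.745) and Mki67 (0.662), sham 3 was the highest for Rpl3l (0.795), and sham 1 was the lowest for Kcnj2 (0.629).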

How the results depend on the processing

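The count of called genes was within 1.5 times of 2724 under RLE scaling (2787), no filter (2034), a mean of at least 1 CPM (2828), DESeq2 (3773), no robust option (2727) and limma voom (2514). A fit of all 24 libraries called 4114, of which 1593 were lower, and shared 2663 of the 2724. With 1 mouse left out the count ran from 1437 to 3856, that of higher genes from 941 to 2266 and that of lower genes from 496 to 1590; the cause was not tested. The replicate numbers did not pair the mice: same-numbered deviations correlated between -0.176 and 0.0759, and no TAC mouse correlated best with its own number. With the replicate number as a block 1542 genes were called, 875 higher and 667 lower, 1472 of them shared. For 123 genes named above, which leave out Rgcc, these settings were compared. No called gene among them changed sign under any setting, and of those not called Actc1 (without TAC 6) and Ppargc1a (without TAC 2) did. The larger spread among TAC mice held in every fit, with approximate permutation p from 0.00216 to 0.00649. Of the 123 genes, 25 lost their call with the block, among them Fos (adjusted p = 0.0695), 16 with no filter and 12 with limma voom. DESeq2 gave no adjusted p for Fos, Hspa1a and Atf3 and lost no other call. Depth limits genes near 1 CPM.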
